A study of Homo sapiens with 9 samples.

Results

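Long intergenic noncoding RNA genes (LINC genes) were followed in HNT34, a human acute myeloid leukemia (AML) cell line with a 3q26 rearrangement and high EVI1, after EVI1 knockdown. They were taken as every gene of the counts table whose symbol is LINC followed only by digits, which gave 215 of the 16612 genes of the table. HNT34 cells carried a lentiviral non-targeting shRNA (NT) or an shRNA against EVI1, either sh#16 or sh#87, in a vector with a red fluorescent protein and a puromycin resistance gene, and RNA was collected 3 days after selection. Each group had 3 libraries, made from polyA-selected RNA, and the groups were compared to ask which transcripts depend on EVI1 in this line. The libraries titled 87 carry the number 18 in another label and were grouped by title. All results come from 1 cell line, and whether the replicates were separate cultures is not stated, so that p-values measure the spread between these libraries only.

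A LINC symbol is given to long RNAs without a clear coding frame that arise from loci apart from coding genes. Such RNAs are mostly made by RNA polymerase II and polyadenylated, are often present at low levels, and tend to be restricted to few cell types. A minority have a described role, in chromatin, in the nucleus or as regulators of a nearby gene. EVI1, encoded by MECOM, is a zinc finger transcription factor of hematopoietic stem cells that is overexpressed in AML with 3q26 rearrangements. Its first zinc finger domain binds a GATA-like motif, and the other domain binds a motif that resembles ETS sites.

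Libraries held between 17096170 and 43502389 counts. Levels are given as counts per 1000000 (CPM), with library sizes from edgeR's TMM method, and with 3 counts in a library taken as the limit of detection, between 0.0648 and 0.164 CPM. Mitochondrially encoded genes took 15.9%, 11.5% and 4.69% of the counts of the NT libraries, 2.69% to 2.88% in sh#16 and 4.62% to 5.97% in sh#87. NT libraries also varied more among themselves, with a biological coefficient of variation of 25% against 3.77% in sh#16 and 6.96% in sh#87. MECOM stood at 571, 504 and 440 CPM in NT, at 145, 143 and 145 CPM in sh#16 and at 109, 107 and 106 CPM in sh#87 libraries. Its log2 fold change with both shRNAs was −2.0 (SE 0.14, edgeR quasi-likelihood adjusted p = 9.18e-07), and the sh#87 libraries lay below those of sh#16 (log2 difference −0.43, SE 0.089, edgeR adjusted p = 0.00661).

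The labelled cell type was checked against its markers. PTPRC, CD33, CD34, KIT and SPI1, which mark myeloid and progenitor cells, were present in every library, with a lowest value of 8.80 CPM for SPI1, while MPO was not analysed here. PTPRC, the pan-leukocyte phosphatase CD45, averaged 855 ± 37.2 CPM in NT (SD, n = 3) and 121 ± 23.5 CPM in the knockdown libraries (SD, n = 6). CD34 lay between 667 and 769 CPM in NT and between 41.2 and 118 CPM in the knockdown libraries. Across all libraries KIT ranged from 26.7 to 87.8 CPM, SPI1 from 8.80 to 83.0 CPM and CD33 from 33.1 to 44.5 CPM. COL1A1, a collagen gene of stromal cells, averaged 0.116 ± 0.066 CPM in NT (SD, n = 3) and 27.8 ± 1.75 CPM in the knockdown libraries (SD, n = 6). Of the other markers, CD3E lay between 2.64 and 10.1 CPM, and EPCAM and ALB were not analysed here. Levels of PTPRC, CD34 and COL1A1 thus moved with the knockdown, beside every LINC difference against NT given here, and their part in these differences was not tested. In bulk RNA, fewer cells of a type and less RNA per cell cannot be told apart.

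The term intergenic held for most but not all of the members. In the RefSeq annotation of GRCh38.p14, 195 matched by symbol and 20 by an older name, and 212 were listed as long noncoding RNAs. The other 3 were matched only by an older name to genes listed as protein coding: LINC00634 to SMIM45, LINC00672 to LASP1NB and LINC02804 to GPR89B. Whether the counts under these LINC symbols come from the coding genes was not determined. A further 10 have been renamed as divergent transcripts of a coding gene, and 30 overlap the span of one. None of the members contains a listed microRNA hairpin. The longest GENCODE transcript, found for 211 members, had a median length of 2518 bases. In 18 members, at least 20% of the 31-base words of that transcript also occur in 1 other gene, so that reads may be split between them, and LINC01122 was the only one of these among the genes called with both shRNAs. Over all other genes together, more words were shared in some further called members, such as LINC00504 (42.1%), LINC02614 (35.4%) and LINC01198 (32.9%). The libraries were prepared with a kit that keeps the strand, but the counting is not stated to use it, so reads of a LINC gene and of a gene on the opposite strand may not have been separated.

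With both shRNAs as 1 group, 57 LINC genes were called against NT, 31 of them higher and 26 lower in the knockdown libraries. A call required a log2 fold change of 2 or more in either direction and an adjusted p no higher than 0.01 in edgeR's quasi-likelihood test, adjusted over all 16312 genes tested, of which 206 were LINC genes. Calls thus reached 27.7% of the LINC genes tested, beside 15.4% of all genes tested. For higher genes the share was 15%, beside 9.74% of all genes, and for lower genes 12.6%, beside 5.66%. At an adjusted p of at most 0.01 without a fold threshold, 70 LINC genes were higher (30.1% of all genes were) and 50 were lower (29.7% of all genes were), 120 in all against a background of 59.8%. The surplus of LINC genes therefore lay in the size of the changes and not in the number of genes past the p threshold. All 6 knockdown libraries lay above the 3 NT libraries for 84 LINC genes and below them for 58, which happened for 33.9% and 32.1% of all genes. The median log2 fold change was 0.43 over the LINC genes and 0.049 over all genes tested. By mean level over the 9 libraries, the median was 0.68 for LINC genes against 0.77 for all genes under 1 CPM, 0.26 against 0.31 between 1 and 10 CPM, and 0.35 against −0.10 at 10 CPM or more. With total counts in place of TMM scaling, the medians were 0.71 and 0.34, and 89 LINC genes were higher and 41 lower at that adjusted p. The 9 LINC genes that were not tested held at most 41 counts in any library.

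Large changes were found mostly among low genes, LINC and other genes alike. Of the LINC genes with a mean under 1 CPM over the 9 libraries, 32 of 81 (39.5%) were called, beside 32.8% of all genes at that level. Between 1 and 10 CPM the call reached 20 of 88 LINC genes (22.7%), beside 25.1% of all genes. At 10 CPM or more, 5 of 37 (13.5%) were called, beside 7.03%. Only 37 LINC genes but 9813 of the 16312 genes tested stood in the highest class. Whether the LINC genes differ from others of like level was not tested.

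**Figure D1:**
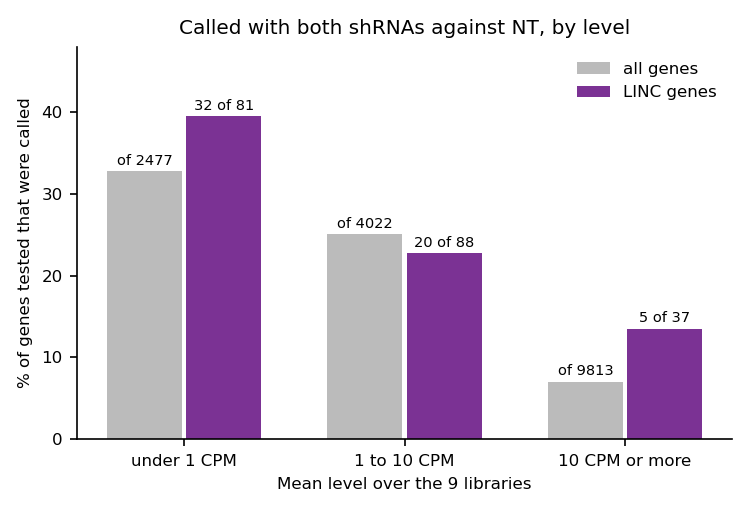
Share of genes called with both shRNAs against NT (vertical axis, percent of genes tested) in 3 classes of mean level over the 9 libraries (horizontal axis), for all genes (grey) and LINC genes (purple). The share fell with level in both sets, from 39.5% to 13.5% of the LINC genes and from 32.8% to 7.03% of all genes.

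Other classes of noncoding genes gave other shares with the same rule. Antisense genes (symbols with -AS) were called in 65 of 368 (17.7%), divergent transcripts (-DT) in 13 of 126 (10.3%), and small RNA host genes with a symbol ending in HG in 10 of 33 (30.3%). Host genes with digits after HG were not counted in this class. The median log2 fold change was −0.059 for antisense, 0.19 for divergent and −0.35 for these host genes, against 0.43 for LINC genes. LINC genes thus had the highest median of these classes, and the host genes ending in HG the highest share called.

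Among the LINC genes that reached a mean of 1 CPM in either condition, had separated libraries and passed an adjusted p of 0.01 with sh#16 and with sh#87, 50 were higher and 38 lower in the knockdown libraries. The share of all genes that meet this rule was not determined, so these numbers describe the selection only. The 10 of the largest fold in each direction are described here, with positions on GRCh38.p14.

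LINC02614 (chr3:125827237-125886077) had the largest rise of the genes that met this rule, with 35.4% of its 31-base words shared with other genes. It was counted 0, 2 and 1 times in the NT libraries, and stood at 2.41, 1.95 and 2.19 CPM in sh#16 and at 3.16, 3.31 and 4.52 CPM in sh#87. Its 429 counts in the knockdown libraries against 3 in NT gave a ratio of 70.2 after scaling (95% exact interval 23.8 to 342, counting error only). LINC00884 (chr3:194487140-194488545), now named ATP13A3-DT and overlapping ATP13A3, was counted 2, 0 and 1 times in NT and stood at 1.73, 1.66 and 1.15 CPM in sh#16 and at 1.21, 1.39 and 1.07 CPM in sh#87, a ratio of 36.3 (95% exact interval 12.3 to 177). Both genes were thus near or below detection in NT and separated from it in all 6 knockdown libraries.

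LINC01814 and LINC01366 rose from levels that were well measured in NT. LINC01814 (chr2:8559833-8583792) stood at 1.63, 1.56 and 1.47 CPM in NT, at 13.1, 12.2 and 12.8 CPM in sh#16 and at 16.3, 15.1 and 16.4 CPM in sh#87 (log2 fold change 3.20, SE 0.16, edgeR adjusted p = 1.48e-07). LINC01366 (chr5:170331393-170335100) stood at 2.32, 2.04 and 2.13 CPM in NT, at 15.7, 14.4 and 14 CPM in sh#16 and at 12.1, 14.6 and 15.4 CPM in sh#87 (2.73, SE 0.14, edgeR adjusted p = 1.39e-07). Knockdown and NT libraries lay far apart for both, and the shRNAs gave similar levels of LINC01366, with a log2 difference of −0.07 (SE 0.11).

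Of the other risers, LINC01399 (chr22:35119824-35231056) went from between 0.516 and 0.824 CPM in NT to between 3.22 and 4.17 CPM in the knockdown libraries, and LINC02606 (chr1:9425094-9428996) from between 0.0667 and 0.433 to between 1.26 and 1.79 CPM. Their log2 fold changes were 2.58 (SE 0.22, edgeR adjusted p = 3.87e-06) and 2.71 (SE 0.41, edgeR adjusted p = 1.86e-04). LINC01623, LINC00624, LINC02887 and LINC00920 also belong to these risers and are described with the differences between the shRNAs.

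LINC02772 (chr1:157275095-157283966) had the largest fall. It stood at 5.55, 3.64 and 3.47 CPM in NT, and was counted 1, 2 and 0 times in sh#16 and 0, 1 and 0 times in sh#87. The ratio of NT to sh#16 was 124 (95% exact interval 42.0 to 604), and that of NT to sh#87, with 1 count against 317, was 275 (48.9 to 10880). LINC02805 (chr1:148162710-148163413) went from 1.12, 1.08 and 0.967 CPM in NT to 2 counts in the 6 knockdown libraries, a ratio of 81.5 (95% exact interval 21.8 to 685). Both transcripts were thus at or below the limit of detection in every knockdown library.

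LINC02770 (chr1:191732686-192011260) was lower with each shRNA. It stood at 1.20, 1.13 and 0.834 CPM in NT, was counted 4, 2 and 1 times in sh#16 and was at 0 counts in all 3 sh#87 libraries, where it was at least 6.92-fold lower against a floor of 3 counts per library. At these counts the difference between the shRNAs did not pass the threshold (edgeR adjusted p = 0.0459).

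LINC02870 and LINC02228 fell from higher levels. LINC02870 (chr10:132445189-132448306) stood at 6.88, 9.45 and 7.17 CPM in NT, at 0.441, 0.648 and 0.274 CPM in sh#16 and at 0.208, 0.313 and 0.407 CPM in sh#87 (log2 fold change −4.28, SE 0.28, edgeR adjusted p = 6.52e-07). LINC02228 (chr5:25126305-25190656) stood at 13.2, 12.8 and 8.97 CPM in NT, at 1.24, 1.36 and 0.986 CPM in sh#16 and at 0.665, 0.804 and 1.32 CPM in sh#87 (−3.44, SE 0.23, edgeR adjusted p = 7.84e-07). No knockdown library came near an NT library for either gene.

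The other 5 of the largest falls lay between −3.52 and −3.72 on the log2 scale. LINC02573 (chr21:20256862-20258685) went from between 3.77 and 4.77 CPM in NT to between 0.153 and 0.411 CPM. LINC00989 (chr4:79492593-79576460) went from between 2.82 and 3.91 to between 0.0894 and 0.438 CPM, and LINC02160 (chr5:33229735-33255553) from between 2.57 and 5.46 to between 0.291 and 0.438 CPM. For LINC00539 (chr13:21303512-21344859) and LINC02306 (chr14:25833008-25838532) the NT libraries lay between 0.817 and 1.69 CPM and the knockdown libraries between 0.0401 and 0.305 CPM. All 5 passed at an edgeR adjusted p of 3.64e-05 or less.

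**Figure D2:**
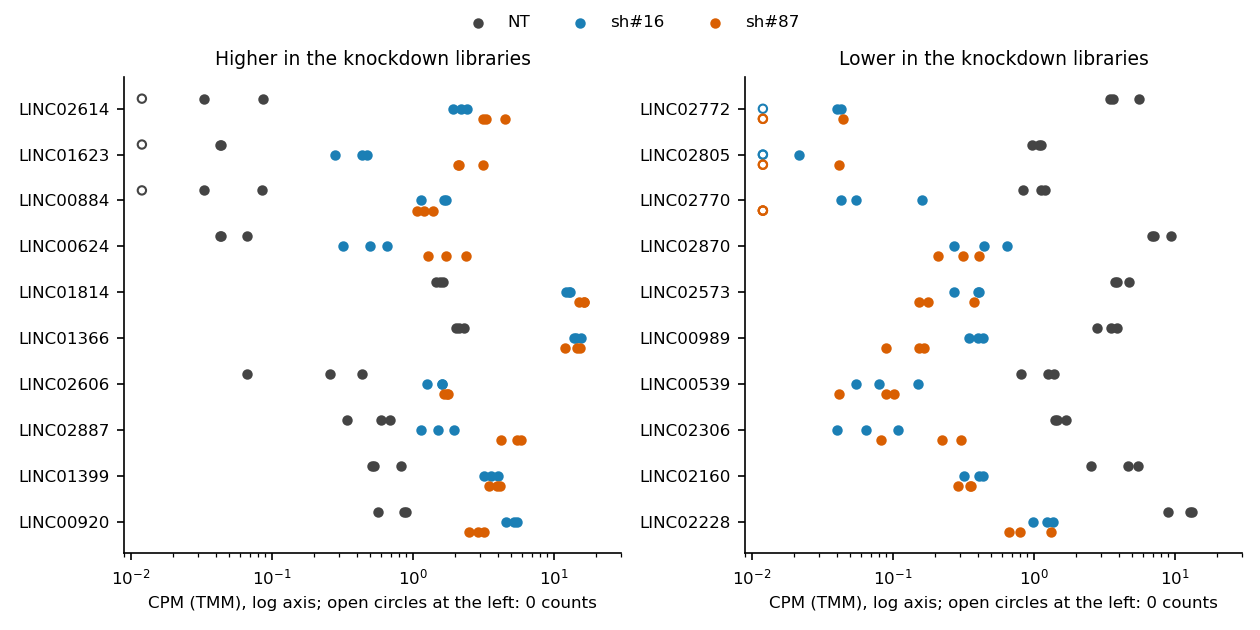
CPM in each library (horizontal log axis) of the 10 LINC genes with the largest rise (left) and the 10 with the largest fall (right) with both shRNAs, for NT (grey), sh#16 (blue) and sh#87 (orange). Open circles at the left edge are libraries with 0 counts, and for each gene the NT libraries stand apart from all 6 knockdown libraries.

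Among the genes outside this rule, chosen after their values were seen, LINC00243 (chr6:30812866-30830659) was at 0 counts in all 3 NT libraries. It was counted 9, 23 and 12 times in sh#16 and 25, 19 and 18 times in sh#87, at least 5.54-fold higher over the 6 knockdown libraries against the floor of NT. LINC02767 (chr1:207958991-207968142), also chosen in this way, was a well expressed gene that fell, from 26.4, 30.5 and 25.6 CPM in NT to 5.14, 5.04 and 6.03 CPM in sh#16 and 2.29, 2.82 and 2.29 CPM in sh#87 (log2 fold change −2.80, SE 0.29, edgeR adjusted p = 1.45e-05).

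Promoter sequence was read from RefSeq (GRCh38.p14) for the 152 members with an entry, as 250 bases before to 50 bases after the start. Windows were searched on both strands for ACAAGATAA and GAAGATGAG, the motifs of the EVI1 zinc finger domains, for AGATAA, the GATA core that ACAAGATAA contains, and for CACGTG, the E-box that MYC and its partners bind. ACAAGATAA occurred in 1 member window (0.617%) and in 0.188% of all 35116 promoters, and GAAGATGAG in 5 (3.09%) and in 0.347%. The window with ACAAGATAA belonged to a member called lower. GAAGATGAG occurred in 1 of 18 windows of members called lower, none of 21 of those called higher and 3 of 117 of those not called. AGATAA occurred in 11.1% of member windows and in 10.3% of all promoters, with 5 of 21 windows of members called higher and 3 of 18 of those called lower. CACGTG occurred in 7.41% and in 7.26%, with 4 of 21 windows of members called higher and none of the 18 of those called lower. The following windows are the called members with a match to an EVI1 domain motif (LINC01597 and LINC00987) and the members of the largest changes that hold a GATA core or an E-box (LINC02573, LINC00920 and LINC00884), with the matches in capitals on the strand of the gene, read 5′ to 3′.
LINC01597, minus strand, chr20:30286488-30286787: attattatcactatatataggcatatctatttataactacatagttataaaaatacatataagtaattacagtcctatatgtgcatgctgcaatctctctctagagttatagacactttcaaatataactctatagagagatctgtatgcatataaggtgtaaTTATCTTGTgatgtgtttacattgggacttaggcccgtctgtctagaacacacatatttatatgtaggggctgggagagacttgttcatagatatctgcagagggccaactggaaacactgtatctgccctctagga
LINC00987, plus strand, chr12:9239823-9240122: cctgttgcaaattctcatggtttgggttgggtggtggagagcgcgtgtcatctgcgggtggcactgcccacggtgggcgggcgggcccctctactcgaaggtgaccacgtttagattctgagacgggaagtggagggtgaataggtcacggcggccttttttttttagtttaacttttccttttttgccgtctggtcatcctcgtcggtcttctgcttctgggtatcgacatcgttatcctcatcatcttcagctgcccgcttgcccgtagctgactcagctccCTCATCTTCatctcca
LINC02573, minus strand, chr21:20258636-20258935: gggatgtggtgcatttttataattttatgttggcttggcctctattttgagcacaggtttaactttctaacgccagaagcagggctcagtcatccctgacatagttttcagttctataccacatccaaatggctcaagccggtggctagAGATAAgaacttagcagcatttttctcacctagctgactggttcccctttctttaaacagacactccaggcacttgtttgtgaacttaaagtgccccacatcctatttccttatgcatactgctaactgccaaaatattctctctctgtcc
LINC00920, plus strand, chr16:66408274-66408573: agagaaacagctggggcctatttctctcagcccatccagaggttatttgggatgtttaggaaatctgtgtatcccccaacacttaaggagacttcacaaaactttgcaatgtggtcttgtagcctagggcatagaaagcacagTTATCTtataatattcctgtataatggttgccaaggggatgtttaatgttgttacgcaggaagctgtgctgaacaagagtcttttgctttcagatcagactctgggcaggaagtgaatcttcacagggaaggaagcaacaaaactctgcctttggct
LINC00884, plus strand, chr3:194486890-194487189: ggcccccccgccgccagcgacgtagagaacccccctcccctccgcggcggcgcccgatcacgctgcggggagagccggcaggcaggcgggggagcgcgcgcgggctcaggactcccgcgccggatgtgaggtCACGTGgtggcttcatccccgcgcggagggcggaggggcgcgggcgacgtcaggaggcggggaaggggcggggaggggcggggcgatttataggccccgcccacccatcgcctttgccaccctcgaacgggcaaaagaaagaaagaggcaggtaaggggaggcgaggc

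The ACAAGATAA match of LINC01597 began 87 bases before the start, on the strand opposite to the gene. LINC01597 stood at 5.42, 5.55 and 4.94 CPM in NT, at 0.803, 0.886 and 0.822 CPM in sh#16 and at 0.499, 0.179 and 0.356 CPM in sh#87 (log2 fold change −3.12, SE 0.35, edgeR adjusted p = 2.35e-05). The GAAGATGAG match of LINC00987 began 34 bases after the start, and this gene fell from between 0.50 and 0.946 CPM in NT to between 0.0832 and 0.179 CPM (−2.21, SE 0.32, edgeR adjusted p = 1.43e-04). LINC02573 and LINC00920 both hold a GATA core, 101 and 107 bases before the start, and changed in opposite directions. The E-box of LINC00884 lay 118 bases before the start. A match is a description of letters, and binding of EVI1 at these windows was not measured here.

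The LINC genes of the highest levels changed less. Per kilobase of the longest GENCODE transcript, LINC01881 (33.1 CPM per kb) led but shares 92.1% of its 31-base words with 1 other gene, so its level is uncertain. LINC00910 (14.1 CPM per kb), LINC00342 (9.54), LINC01515 (9.07) and LINC00339 (9.01) followed, with LINC00342 sharing 35.6% and LINC00339 20.9% of their words with 1 other gene. LINC00910 changed places between groups, from 3.90 CPM per kb in NT to 15.5 in sh#16 and 22.8 in sh#87.

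Of the 10 genes with the highest mean CPM, LINC00910 was the only one called. LINC00910 (chr17:43369845-43388898) stood at 12.6, 10.6 and 10.6 CPM in NT, at 44.5, 44.9 and 45.3 CPM in sh#16 and at 65.2, 66.5 and 65.9 CPM in sh#87 (log2 fold change with both 2.30, SE 0.19, edgeR adjusted p = 3.23e-06), so its groups did not overlap. LINC00662 (chr19:27790493-27793940) fell from 68.0, 59.6 and 58.9 CPM in NT to between 25.7 and 29.1 CPM (−1.19, SE 0.08, edgeR adjusted p = 9.70e-07). LINC01515 (chr10:65571425-65766541) fell from between 34.6 and 47.9 to between 20.7 and 24.7 CPM (−0.87, SE 0.11, edgeR adjusted p = 5.34e-05).

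LINC00174 (chr7:66376044-66400408) rose to different extents, from 14.1, 15 and 16.9 CPM in NT to 27.1, 29.2 and 23.0 CPM in sh#16 and 57.4, 67.5 and 65.0 CPM in sh#87 (1.54, SE 0.38, edgeR adjusted p = 0.00399). Without NT replicate 1, 2 or 3 its adjusted p was 0.0195, 0.0184 or 0.0129. With each shRNA alone against NT it passed (edgeR adjusted p = 2.37e-04 for sh#16 and 4.20e-07 for sh#87). LINC01128 rose (0.63, SE 0.12, edgeR adjusted p = 6.33e-04). LINC01278 was at 52.3, 46.5 and 29.9 CPM in NT and between 27.4 and 31.2 CPM in the knockdown libraries, so that NT replicate 3 overlapped them (−0.55, SE 0.15, edgeR adjusted p = 0.00713). Without NT replicate 1 or 2 its adjusted p was 0.0372 or 0.0373, and without any 1 knockdown library it lay between 0.0115 and 0.0162. LINC00342, LINC00923, LINC01184 and LINC00205 did not pass with both shRNAs (log2 values between −0.16 and 0.33). Without NT replicate 3, LINC00205 passed (0.50, edgeR adjusted p = 0.00374).

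A list of 27 LINC genes with a described role held 12 genes of the table. At an adjusted p of at most 0.01 with both shRNAs, 4 were higher (30.1% of all genes were), 5 were lower (29.7%) and 3 did not pass. None reached the fold threshold, beside 15.4% of all genes called. Listed genes were matched by symbol, so a gene held under another name would be missed. LINC00173, a transcript of granulocytes, stood at 2.54, 3.25 and 3.27 CPM in NT, at 11, 11.3 and 10.5 CPM in sh#16 and at 13.1, 13.5 and 12.2 CPM in sh#87 (log2 fold change 1.98, SE 0.15, edgeR adjusted p = 1.63e-06), just under the fold threshold. LINC00641 (1.56, SE 0.24) and LINC00339 (1.21, SE 0.16) also rose. LINC01089 (−1.53, SE 0.21), LINC00649 (−1.45, SE 0.26) and LINC00963 (−1.09, SE 0.10) fell. LINC01089 overlaps SETD1B and shares 56.5% of its words with RHOF. LINC00665, LINC01138 and LINC00467 did not pass, with values of 0.59, −0.17 and −0.44.

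The nearest member on each side of MECOM (chr3:169083507-169663712) was megabases away. These were LINC02021 (chr3:130111707-130120569) at lower coordinates and LINC00578 (chr3:177441921-177752704), the nearer of the pair, at higher ones. LINC02021 stood between 4.10 and 6.50 CPM in NT and between 4.0 and 6.81 CPM in the knockdown libraries, with overlapping groups (log2 fold change 0.0034, SE 0.22). LINC00578 was not tested for its low counts, which were 14, 10 and 16 in NT, 0, 6 and 0 in sh#16 and 1, 0 and 2 in sh#87.

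Each shRNA was then compared with NT in a fit of 3 groups. With sh#16, 53 LINC genes were called, 25.7% of those tested beside 12.8% of all genes. Of these, 27 were higher (13.1% beside 7.95% of all genes) and 26 lower (12.6% beside 4.84%). With sh#87, 67 were called, 32.5% of those tested beside 18.9% of all genes. Here 39 were higher (18.9% beside 11.7% of all genes) and 28 lower (13.6% beside 7.14%). Both comparisons share the 3 NT libraries. The median log2 fold change of the LINC genes was 0.22 with sh#16 and 0.66 with sh#87, beside 0.040 and 0.035 over all genes.

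**Figure D3:**
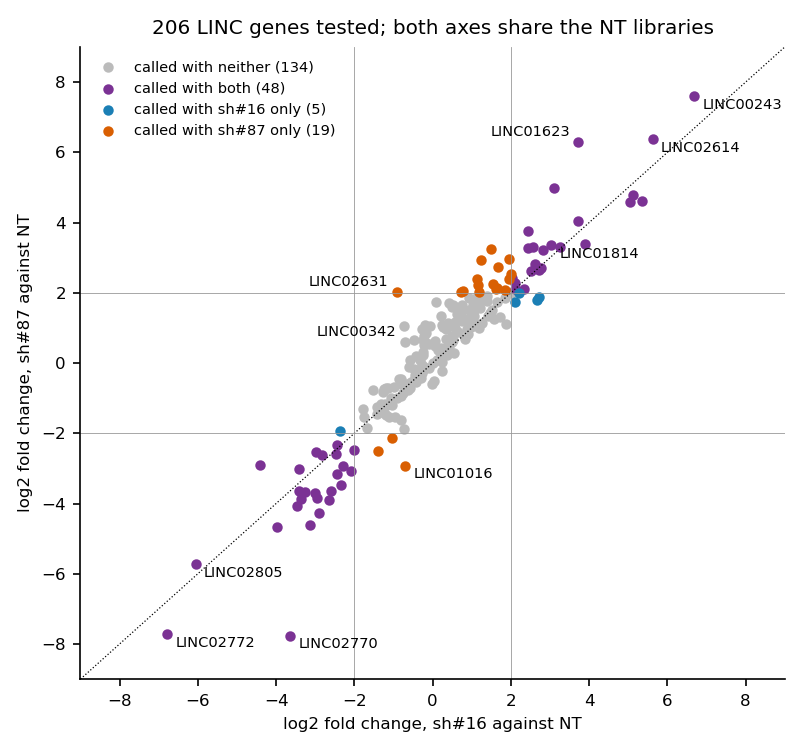
Log2 fold change of each of the 206 LINC genes tested with sh#16 (horizontal) and sh#87 (vertical) against the same 3 NT libraries, coloured by the calls of each comparison, with equal values on the dotted line and log2 fold changes of 2 on the thin lines. The 53 genes called with sh#16 lie beyond the vertical thin lines and the 67 called with sh#87 beyond the horizontal ones.

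Between the shRNAs, 39 LINC genes differed at an adjusted p of at most 0.01 (17.7% of all genes did). Of these, 33 were higher with sh#87 (8.29% of all genes were) and 6 were lower (9.42%). This amounts to 16.0% of the LINC genes in the higher direction and 2.91% in the lower one. The same direction prevailed in other noncoding classes, with 48 genes higher and 7 lower (13.0% and 1.90%) among the antisense transcripts and 12 higher and 2 lower (9.52% and 1.59%) among the divergent ones. Only 3 LINC genes also reached the fold threshold (0.454% of all genes), 2 of them higher with sh#87 (0.288%) and 1 lower (0.166%). Low genes of all kinds leaned the same way. Under 1 CPM the median log2 difference was 0.323 for LINC genes against 0.316 for all genes. It was 0.127 against 0.095 between 1 and 10 CPM, and 0.213 against −0.081 at 10 CPM or more. Whether LINC genes differ in this from others of like level was not tested.

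LINC02631 (chr2:138601599-138617469) had the largest difference between the shRNAs among the LINC genes past the threshold. It was at 0.258, 0.173 and 0.233 CPM in NT, at 0.161, 0.0648 and 0.164 CPM in sh#16 and at 1.08, 0.983 and 0.661 CPM in sh#87 (log2 difference 2.94, SE 0.38, edgeR adjusted p = 7.53e-04). It was called against NT with sh#87 alone. LINC01623 (chr6:28859625-28863677) was counted 1, 1 and 0 times in NT, and stood at 0.281, 0.476 and 0.438 CPM in sh#16 and at 2.08, 2.15 and 3.15 CPM in sh#87 (2.58, SE 0.31, edgeR adjusted p = 5.88e-04). Its ratio to NT was 15.8 in sh#16 (95% exact interval 4.07 to 135) and 92.4 in sh#87 (25.2 to 769). With both shRNAs it passed at an adjusted p of 0.00263, but at 0.0112, 0.0112 and 0.0146 without NT replicate 1, 2 and 3 (edgeR). That fit places both shRNAs in 1 group, so their difference counts as spread. Against NT with each shRNA alone the edgeR adjusted p was 5.09e-04 for sh#16 and 2.93e-06 for sh#87.

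LINC01016 (chr6:33889511-33896907) went the other way, from 0.903, 0.780 and 0.50 CPM in NT to 0.321, 0.497 and 0.493 CPM in sh#16 and 0.0832, 0.0894 and 0.102 CPM in sh#87 (−2.22, SE 0.42, edgeR adjusted p = 0.00445). Here 2 counts were found in each sh#87 library. LINC00624 (chr1:147382192-147517875) was counted 1, 1 and 2 times in NT and averaged 0.492 ± 0.168 CPM in sh#16 and 1.80 ± 0.542 CPM in sh#87 (SD, n = 3). Its log2 difference was 1.88 (SE 0.31, edgeR adjusted p = 0.00222). LINC02887 (chr17:73589-86410) rose from between 0.344 and 0.694 CPM in NT to between 1.15 and 1.97 CPM in sh#16 and between 4.25 and 5.85 CPM in sh#87 (1.74, SE 0.25, edgeR adjusted p = 0.00131). With both shRNAs it passed at 0.00333, but at 0.0183, 0.0114 and 0.0133 without NT replicate 1, 2 and 3 (edgeR). Against NT it also passed with each shRNA alone. LINC00920 (chr16:66408524-66410901) was the one of the 10 largest risers that passed between the shRNAs with the higher level in sh#16, at 5.50, 4.60 and 5.20 CPM against 2.91, 2.50 and 3.20 CPM in sh#87 and 0.903, 0.867 and 0.567 CPM in NT (−0.83, SE 0.18, edgeR adjusted p = 0.00807).

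LINC00342 (chr2:95807052-95826981) had log2 fold changes of opposite sign with the shRNAs. It stood at 55.7, 43.2 and 28.9 CPM in NT, at 26.8, 25.7 and 25.7 CPM in sh#16 and at 66.6, 60.9 and 65.2 CPM in sh#87. Against NT its log2 fold change was −0.71 (SE 0.19, edgeR adjusted p = 0.00927) with sh#16 and 0.59 (SE 0.19, edgeR adjusted p = 0.0182) with sh#87, the latter not past the threshold. The shRNAs differed by 1.3 (SE 0.20, edgeR adjusted p = 0.00157).

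The summed level of the LINC genes separated sh#87 from the other groups. LINC genes took 0.0921%, 0.0941% and 0.0966% of the counts in NT, 0.112%, 0.110% and 0.109% in sh#16 and 0.137%, 0.148% and 0.148% in sh#87. The knockdown libraries exceeded NT by 0.0331 percentage points (exact permutation test, two-sided, p = 0.0238, with 0.0119 the smallest p for 6 against 3 libraries). On the TMM scale the sums were 1146, 1100 and 1007 CPM in NT, 1038, 1032 and 1020 CPM in sh#16 and 1301, 1359 and 1376 CPM in sh#87, and sh#16 was then within the range of NT. With these sizes the difference was 0.0103 percentage points (exact permutation p = 0.429). The higher share in sh#16 thus depended on the scaling, whereas sh#87 libraries exceeded all others on both scales. Without the mitochondrially encoded genes, whose share was highest in NT, the difference was 0.0272 percentage points (exact permutation p = 0.0357). Leaving out any 1 of the NT or sh#87 libraries gave an exact p of 0.0714.

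The number of LINC genes at 1 CPM or more, by total counts, was 106, 114 and 116 in NT, 118, 118 and 116 in sh#16 and 128, 129 and 128 in sh#87. The mean difference of 10.8 genes (exact permutation test, two-sided, p = 0.0357) fell to 0.167 genes on the TMM scale (exact permutation p = 1), where NT had 119, 122 and 118, sh#16 117, 115 and 114, and sh#87 124, 123 and 126. The exact p of the count by total counts rose to between 0.0536 and 0.179 when any 1 library other than sh#16 replicate 3 or NT replicate 3 was left out. Between sh#16 and sh#87, 3 libraries against 3, the smallest p an exact test allows is 0.10.

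No single gene carried the sum. The 10 highest genes took 31.7% of the summed LINC level in NT, 30.8% in sh#16 and 32.8% in sh#87. From sh#16 to sh#87, gains of LINC genes summed to 347 CPM and losses to −32.0 CPM, with a higher mean in sh#87 for 139 of the 215. LINC00342 gained 38.1 CPM, LINC00174 36.9 CPM and LINC00910 20.9 CPM.

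**Figure D4:**
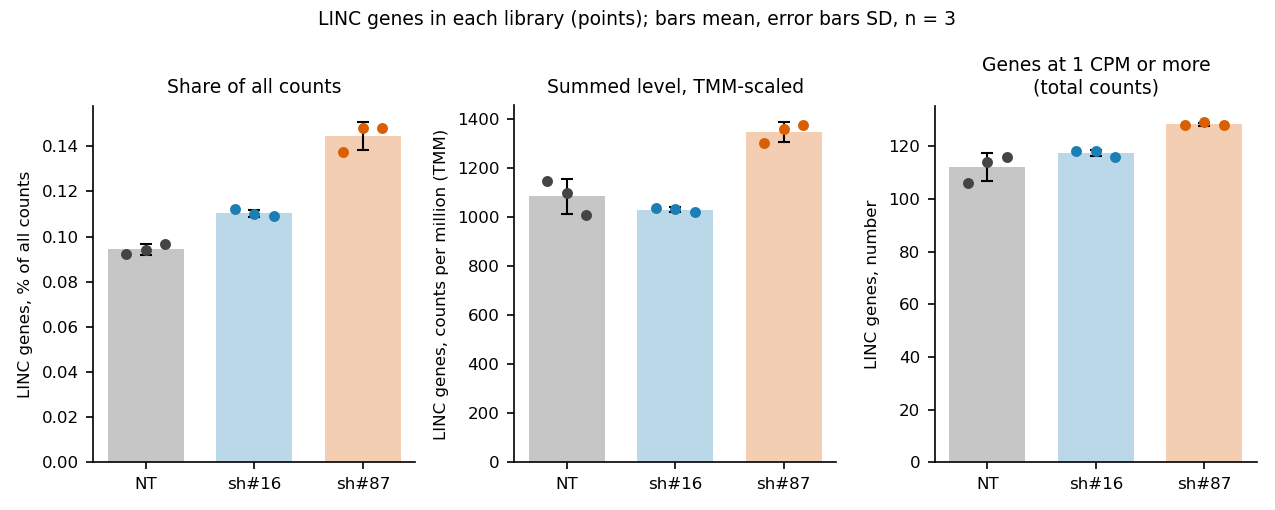
LINC genes in each library, as percent of all counts (left), as summed CPM with TMM scaling (middle) and as the number of genes at 1 CPM or more by total counts (right), with points for libraries and bars with error bars for the mean and SD of 3 libraries. The sh#87 libraries lie highest in all 3 panels, while sh#16 libraries lie above NT by share of counts (0.109% to 0.112%) and within the NT range with TMM scaling (1020 to 1038 CPM).

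LINC genes were next set beside the nearest coding gene among those tested, with a median distance of 27.0 kb. Signs of the log2 fold changes with both shRNAs matched in 123 of 206 pairs (59.7%), beside 56.0% of 11812 coding genes and their nearest coding gene. Across the pairs Pearson's r was 0.20, and 0.14 across the coding pairs, where points share libraries and neighbouring genes recur, so these values are descriptions. Members called lower matched their neighbour in 18 of 26 pairs, and those called higher in 15 of 31. Sharing of sign was thus close to that of the coding pairs, which lay nearer together (median 3.67 kb) and were not matched for distance.

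Of the neighbours of the 31 members called higher, 5 were called higher (9.74% of all genes were) and 3 lower (5.66%). For the 26 members called lower, 2 neighbours were called higher and 6 lower. Some of the pairs with a called neighbour are given here, chosen after their values were seen. LINC02767 lies 47.9 kb from CD34, the stem cell surface antigen, which fell from 757, 769 and 667 CPM in NT to between 41.2 and 118 CPM (log2 fold change −3.20, SE 0.38, edgeR adjusted p = 3.31e-05), beside −2.80 for LINC02767. Both had their lowest levels in sh#87. LINC02481, which fell by 3.23 on the log2 scale, lies 3.36 kb from S100P, a calcium-binding protein gene (NT 0.688 to 1.33 CPM, knockdown 0 to 0.0416 CPM). LINC02770 lies 147 kb from RGS18, a regulator of G protein signaling, which fell from between 37.4 and 44.9 CPM to between 0.536 and 1.70 CPM. LINC01094 (−2.52) lies 35.5 kb from ANXA3, an annexin gene, which fell by 3.11 on the log2 scale.

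Pairs that rose together included LINC01814 and LINC00299, which lie 98.3 and 354 kb from ID2, an inhibitor of basic helix-loop-helix factors. ID2 rose from 20.2, 20.1 and 20.8 CPM in NT to between 64.8 and 114 CPM (2.07, SE 0.22, edgeR adjusted p = 1.80e-05), beside 3.20 for LINC01814 and 2.10 for LINC00299. LINC00243 lies 68.3 kb from IER3, an immediate early gene, which rose from between 7.18 and 8.31 CPM to between 58.8 and 66.2 CPM. LINC00174, which was not called with both shRNAs, lies 15.6 kb from TPST1, a tyrosylprotein sulfotransferase gene. TPST1 rose from between 0.534 and 0.824 CPM to between 9.25 and 10.8 CPM.

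Other neighbours went the opposite way. LINC01366 rose 33.6 kb from LCP2, an adaptor of immune receptor signaling that fell from 566, 511 and 298 CPM in NT to between 34.9 and 65.1 CPM (−3.19, SE 0.26, edgeR adjusted p = 2.42e-06). LINC00920 rose 3.74 kb from CDH5, the vascular endothelial cadherin gene, which fell from between 21.3 and 22.9 CPM to between 1.62 and 5.15 CPM. LINC01215 fell by 2.57 on the log2 scale 22.2 kb from IFT57, an intraflagellar transport gene that rose by 2.04. A near neighbour therefore gave no fixed direction for a LINC gene.

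Of the 29 tested LINC genes that overlap the span of a coding gene, 3 were called, all higher, against 28 higher and 26 lower among the 177 that do not overlap one, a difference that was not tested or matched for level. Of all genes tested, 9.74% were called higher and 5.66% lower. By chromosome, calls were found on 20 of the 23 chromosomes with a tested member. Chromosome 4, picked with its values known, had 4 calls among 10 tested genes, all lower. The share of all genes called on that chromosome was not determined.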

How the data were processed

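RNA of HNT34 cells with NT, sh#16 or sh#87 was sequenced as 3 libraries per group. The authors deposited 1 table of estimated counts per gene symbol, not normalized. Its header names salmon output, whereas the methods name STAR v2.7.1a gene counts with ENSEMBL annotation on GRCh38, and FastQC 1.3 is named in the submitters' processing notes. Libraries were polyA-enriched and strand-specific. How rows were chosen and whether the counting used strand is not stated in the sources used here. All values were whole, so no rounding was needed. Since the header begins 1 column early, its 9 names were assigned in order to the 9 columns of counts.

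Counts were tested in R 4.3.3 with edgeR 4.0.16 (TMM, filterByExpr, quasi-likelihood test, Benjamini-Hochberg adjustment over all genes), in a fit of 2 groups for both shRNAs against NT and of 3 groups for the others. SE was the absolute log2 fold change divided by the square root of F. The test was tried on simulated data with known answers before use. That simulation gave all groups the same spread and changed only well counted genes. It therefore did not cover low genes or the wider spread of the NT libraries. Depth was 17096170 to 43502389 counts per library. Intervals and limits of detection cover counting error only. Members and lists were chosen with earlier results of these data known. Named genes were the 10 highest and 10 lowest by the rule given in the text, the 10 of the highest mean CPM, up to 6 called between the shRNAs, the 27 of the role list, and the members nearest to MECOM, and any other gene is noted as picked with its values known. Positions, neighbours and promoters came from RefSeq (GRCh38.p14), and transcript lengths and 31-base words from GENCODE on GRCh37. Alternatives were RLE, upper-quartile and total-count scaling, DESeq2 1.42.0, other filters and thresholds, a replicate block, removal of mitochondrially encoded genes and each library left out. Total-count scaling, the removal of mitochondrial genes in the fits, TMM sizes for the share and the removal of the 3 highest LINC genes were chosen after seeing the data. Figures used Python 3.11.15 and matplotlib 3.10.9. A marker gene and a neighbouring gene are not reported here.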

Additional observations from a re-analysis of the deposited data

Results flagged for a closer look

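Of the named LINC genes, 11 had log2 fold changes against NT that differed between the shRNAs by a direct test (edgeR quasi-likelihood, adjusted p of at most 0.01). The difference, sh#87 minus sh#16, was largest for LINC02631 (2.94), LINC01623 (2.58), LINC00624 (1.88) and LINC02887 (1.74). It was 1.3 for LINC00342, 1.26 for LINC00174, 0.76 for LINC00641, 0.55 for LINC00910 and 0.42 for LINC00923. LINC01016 (−2.22) and LINC00920 (−0.83) were lower with sh#87. LINC00342 and LINC02631 had opposite signs with the shRNAs, −0.71 and 0.59 for LINC00342 and −0.92 and 2.02 for LINC02631. Against NT, LINC00342 did not pass with sh#87 (edgeR adjusted p = 0.0182). LINC02631 did not pass with sh#16 (edgeR adjusted p = 0.100), where it was near the limit of detection, so an opposite change was not established for either gene. LINC00923 was at 0.056 with sh#16 and 0.47 with sh#87. MECOM itself was lower in the sh#87 libraries, and the part of this difference was not tested.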

How the results depend on the processing

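The numbers of called LINC genes stayed within 1.5 times under RLE, upper-quartile and total-count scaling, DESeq2, other filters, an adjusted p of 0.05 and the removal of mitochondrially encoded genes. They moved with the fold threshold: a threshold of 1 on the log2 scale gave 108 (both shRNAs), 97 (sh#16), 124 (sh#87) and 22 (between them), and no fold threshold gave 120, 119, 141 and 39. Leaving out each library gave 55 to 64, 53 to 57, 63 to 73 and 2 to 3, and a MECOM change of −2.12 to −1.92. Scaling by total counts raised the median of all genes from 0.049 to 0.34 (upper-quartile scaling to 0.16) and gave 41 higher and 24 lower calls with both shRNAs. It turned LINC01184 to 0.15 and LINC01138 to 0.12. LINC02021 turned to −0.013 with RLE and −0.0088 with DESeq2, and leaving out each library it ranged from −0.19 to 0.14 and LINC00342 from −0.15 to 0.32, none past the threshold. The LINC share of counts exceeded NT by 0.0103 percentage points with TMM sizes (exact permutation p = 0.429), and by 0.0289 to 0.0368 with each library left out (p = 0.0357 to 0.0714). The number of LINC genes at 1 CPM differed by 6.17 without mitochondrially encoded genes (exact permutation p = 0.25), by 0.167 with TMM sizes (p = 1, exact), and by 7.83 to 12.8 with each library left out (exact p = 0.0357 to 0.179). Of 708 values of named genes under alternatives, 672 kept their direction and side of the threshold, 21 no longer passed, 3 newly passed and 12 changed sign. The replicate numbers did not pair the libraries (r of −0.22 to 0.11 over 9 pairs); with a replicate block the calls were 57, 51, 65 and 2, and LINC00174 and LINC01278 no longer passed. Low counts limit folds of genes with 3 counts or fewer in a group.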
